A study of Homo sapiens with 2 samples.

Results

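FOXO1, FOXO3 and FOXO4 are transcription factors that act downstream of PI3K/AKT. When AKT is active it phosphorylates them, 14-3-3 proteins bind them, and they are kept out of the nucleus. When AKT is low they enter the nucleus and activate genes for growth arrest, stress resistance, protein breakdown and the first steps of insulin signalling, so that low AKT activity raises the receptors and adaptors that feed it. The mRNA level of a FOXO gene therefore does not report the activity of its protein. The 10 genes examined here were these FOXO factors together with IRS2, FBXO32, SESN3, CITED2, INSR, BCL6 and CCNG2, which FOXO factors are known to activate. They were chosen by name, with earlier results of these data known. A probe set counted only if the platform annotation assigned it to that gene alone. All 10 genes had such probe sets, 40 in all of 54613 on the array, among 19775 genes with a probe set of their own.

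AGS is a gastric adenocarcinoma cell line. AGS.W cells carried a puromycin-selected lentiviral vector with the coding region of WTX, the X-linked gene now called AMER1, and AGS.veh cells were the control line for that vector. Both lines were stable transduced cultures, and the sources used here do not say whether they were clones. RNA of each line was hybridised to 1 array, an Affymetrix U133 Plus 2.0, so there was no replicate, no p-value and no standard error, and every difference below is between 2 cultures.

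The arrays had median log2 signals of 4.02 in AGS.W against 4.03 in AGS.veh. A probe set was taken as above the signal filter where it reached the median of at least 1 array. The only probe set of AMER1 read 3.70 in AGS.W against 3.86 in AGS.veh, below both medians, and whether it lies in the vector's coding region was not settled, so it does not check the labels. One label field names brain cortex as the RNA source, whereas the others name AGS. Of 8 markers of gastric and gut epithelium, 7 passed the filter, with KRT18 at 10.9 in AGS.W against 11.2 in AGS.veh, while KRT19 read 3.11 in AGS.W against 2.76 in AGS.veh. Of 5 measured markers of astrocytes and oligodendrocytes 2 passed, among them MBP, which read 6.10 in AGS.W against 6.19 in AGS.veh, while GFAP, AQP4 and OLIG2 did not. Of 6 neuronal markers 4 passed, and SYT1 and NEFL did not. Of all 19775 genes, 12811 passed, so passing the filter alone says little about a marker. GAD1 read 7.06 in AGS.W against 7.11 in AGS.veh, whereas SNAP25 had 5.15 in AGS.W against 3.57 in AGS.veh.

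FOXO factors bind DNA through a forkhead domain at the sequence GTAAACA, and an insulin response element bound by FOXO1 has the form CAAAACAA. Both were searched on either strand in the promoter windows of RefSeq for GRCh38.p14, which run from 250 bases before to 50 bases after each annotated start site. Of the 10 genes, 9 had windows, 15 in all, and FBXO32 was not among them. GTAAACA occurred in the window of FOXO4 alone of these genes, against 3.42% of 35116 windows of all genes, and CAAAACAA occurred in that of IRS2 alone, against 1.68% of all windows. The 5-letter core AAACA, which lies inside both motifs, occurred in 9 of the 15 windows and in 44.4% of all windows. It was found for 8 of the 9 genes, also for FOXO1, FOXO3 and SESN3, for which no stretch is shown. Its presence thus did not set apart the genes that were higher in AGS.W. Stretches of 30 bases are shown for the full matches and for core matches of BCL6, CITED2 and CCNG2, genes that were higher in AGS.W, each read 5′ to 3′ along the gene with the match, or its reverse complement, in capitals.
IRS2, insulin response element 41 bases before the start site, chr13:109786606-109786635, minus strand: cgagtcacatgTTGTTTTGctcttcttagt
FOXO4, forkhead motif after the start site, chrX:71095863-71095892, plus strand: cccggcgagtgGTAAACAgagacgtcagga
BCL6, core before the start site, repeated in the bases that follow it, chr3:187736590-187736619, minus strand: cacaggggaattTGTTTgtttgtttcaatc
CITED2, core 4 bases before the start site, chr6:139374635-139374664, minus strand: caaagccctaagAAACAcagctcattgttg
CCNG2, core after the start site, chr4:77157206-77157235, plus strand: aactcttaacaaAAACAaggggctcgggga
INSR had no match to any of the searched letters in its window. Distances are counted to the first base of a match, so the CITED2 core runs onto the start site. These matches describe letters in short windows and not sites that are bound.

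The genes of the FOXO factors themselves differed little between the lines. For FOXO3, which is expressed in most tissues, 4 probe sets passed the signal filter, and the brightest read 8.38 in AGS.W against 8.32 in AGS.veh. Its other probe sets had log2 differences (AGS.W minus AGS.veh, as throughout) of -0.03, 0.09 and 0.14. Thus the largest difference of any FOXO3 probe set was 0.14. A further 3 probe sets are assigned to FOXO3 and its pseudogene FOXO3B together, which cannot be told apart there, and had differences of -0.08, 0.06 and 0.00. FOXO1, the main FOXO of insulin action in liver, read 6.42 in AGS.W against 6.54 in AGS.veh on its brightest probe set, and 5.56 in AGS.W against 5.83 in AGS.veh on another. The remaining FOXO1 probe set lay below the medians, at 2.34 in AGS.W against 2.76 in AGS.veh, so all 3 were lower in AGS.W. FOXO4, whose gene lies on the X chromosome, read 5.20 in AGS.W against 5.40 in AGS.veh on its single probe set. Over the 8 probe sets of the 3 genes, 3 were higher and 5 lower in AGS.W, the differences ran from -0.42 to 0.14, and none was 1.5-fold apart. FOXO6, the remaining member of the family, read 6.60 in AGS.W against 6.13 in AGS.veh on its single probe set.

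**Figure D1:**
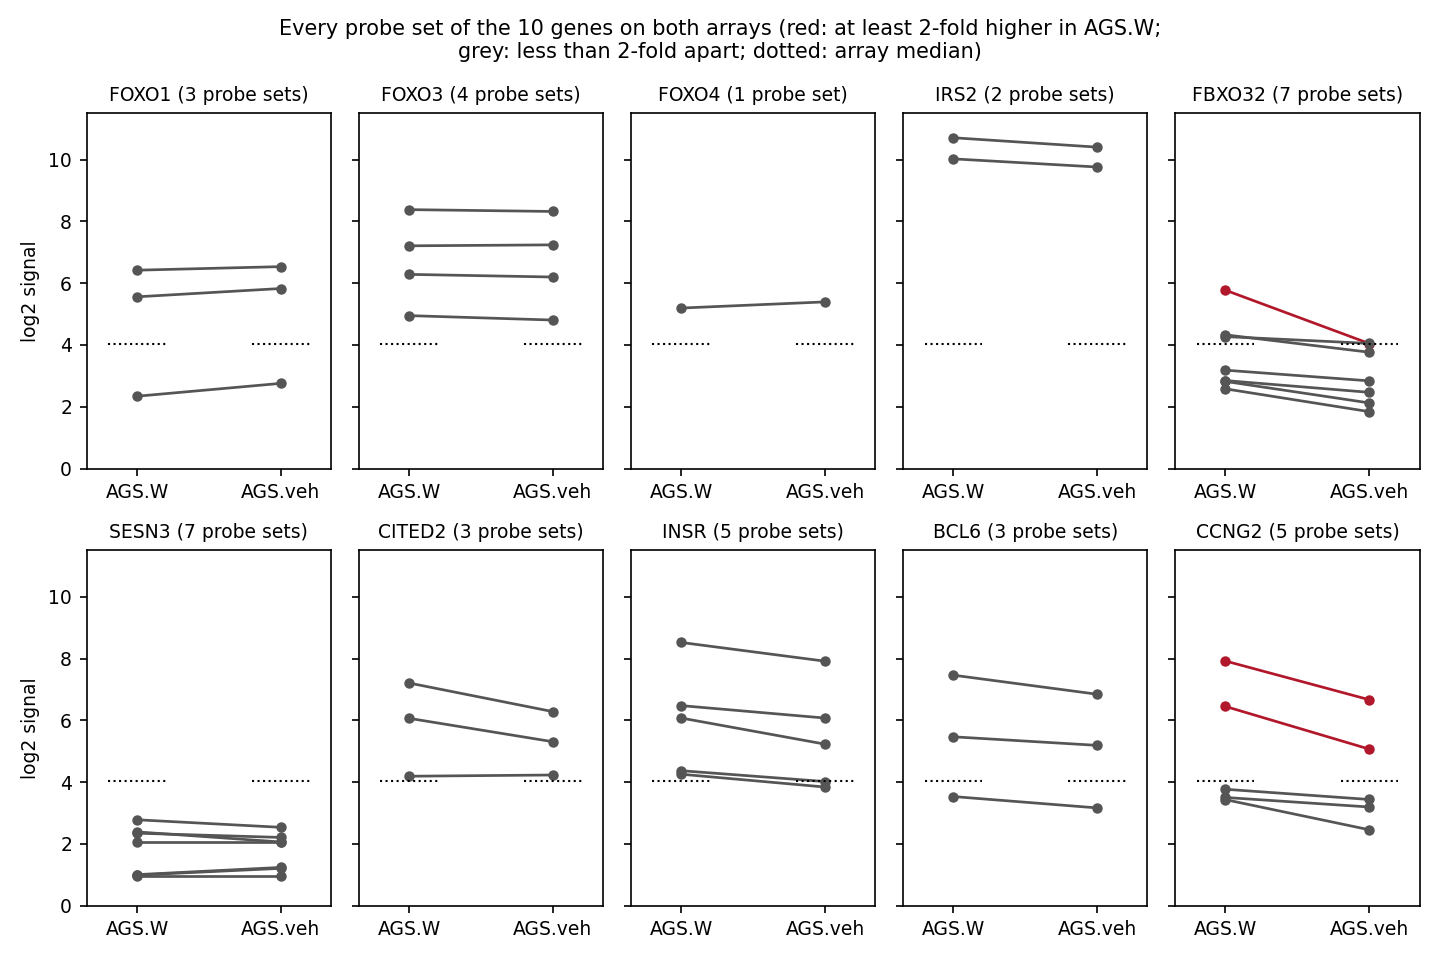
Log2 signal (vertical axis) of each of the 40 probe sets on the AGS.W array (left) and the AGS.veh array (right), 1 panel per gene, with a line joining the 2 readings of a probe set and dotted marks at the array medians. The lines of FOXO3 run nearly level, whereas those of INSR, BCL6 and CCNG2 all slope down towards AGS.veh, and the 3 red ones, in FBXO32 and CCNG2, are the probe sets at least 2-fold higher in AGS.W.

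CCNG2 and FBXO32 were at least 2-fold higher in AGS.W, as were 1.83% of all 12811 genes above the filter. CCNG2 encodes cyclin G2, an unusual cyclin that slows the cell cycle and is present in resting cells. Its brightest probe set read 7.92 in AGS.W against 6.67 in AGS.veh, a 2.38-fold difference. Another probe set read 6.45 in AGS.W against 5.07 in AGS.veh, or 2.61-fold. Both of its probe sets above the filter were thus past 2-fold, and 0.916% and 0.631% of all probe sets above the filter were as much higher. The other 3 probe sets of CCNG2 were below both medians, with differences of 0.33, 0.31 and 0.97, so all 5 were higher in AGS.W.

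FBXO32 encodes atrogin-1, the F-box protein of a ubiquitin ligase that drives muscle wasting when FOXO factors are active. Its brightest probe set read 5.77 in AGS.W against 4.05 in AGS.veh, a 3.31-fold difference, and 0.291% of all probe sets above the filter were as much higher. The AGS.veh reading lay just above the array median of 4.03. A second probe set read 4.27 in AGS.W against 4.05 in AGS.veh, whereas 1 further probe set read 4.33 in AGS.W against 3.77 in AGS.veh. Neither of these reached 1.5-fold, so the size of the FBXO32 difference rests on 1 probe set. The 4 dim ones had differences between 0.35 and 0.74, and all 7 probe sets were higher in AGS.W. Averaged over every probe set of the gene, the dim ones too, the difference was 0.85 for CCNG2 and 0.67 for FBXO32, both below 2-fold.

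CITED2 is a nuclear cofactor that restrains the hypoxia factor HIF-1, and its brightest probe set read 7.21 in AGS.W against 6.28 in AGS.veh, or 1.90-fold. A second probe set read 6.06 in AGS.W against 5.31 in AGS.veh. The third, at 4.19 in AGS.W against 4.23 in AGS.veh, lay close to the array medians and did not share the direction. CITED2 is itself induced by low oxygen in other cells. Of 12 listed genes of the hypoxia response, 11 were measured, and all 11 passed the filter and were higher in AGS.W, as were 45.7% of all genes above it. EGLN3 passed only through its AGS.W reading, while the other 10 reached the median on both arrays. The hypoxia list was drawn up with earlier results of these data known, so its counts against all genes are no independent support. At least 2-fold higher were 3, against 1.83% of all genes. Their median difference was 0.77, and NDRG1, a stress gene, read 11.98 in AGS.W against 10.3 in AGS.veh. ANKRD37 and P4HA1 had differences of 1.10 and 1.11, but 0.43 and 0.56 as means with the other, dim probe set of each. The part of this response in the CITED2 reading was not tested.

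Of the genes at the head of insulin signalling, the receptor gene INSR was higher in AGS.W on all 5 of its probe sets. The brightest read 8.52 in AGS.W against 7.91 in AGS.veh, or 1.52-fold. Another probe set read 6.07 in AGS.W against 5.23 in AGS.veh, or 1.80-fold, and 1 more read 6.48 in AGS.W against 6.07 in AGS.veh. The other 2 passed the filter through their AGS.W reading alone and had differences of 0.35 and 0.41, or 0.34 and 0.23 with the AGS.veh reading set to the median. The differences of INSR thus spread from 0.35 to 0.85, with none past 2-fold. IRS2, the adaptor that links the receptor to PI3K, read 10.7 in AGS.W against 10.4 in AGS.veh on one probe set, while the other had 10.03 in AGS.W against 9.76 in AGS.veh. The differences, 0.30 and 0.26, were close to each other, and 18.6% and 21.0% of all probe sets above the filter were as much higher.

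BCL6, a transcriptional repressor known from germinal centre B cells, read 7.46 in AGS.W against 6.84 in AGS.veh on its brightest probe set, or 1.53-fold. On a second probe set it read 5.47 in AGS.W against 5.19 in AGS.veh, whereas a dim probe set had a difference of 0.37. All 3 were higher in AGS.W. SESN3, which encodes a stress-induced inhibitor of mTORC1, could not be measured well. All 7 of its probe sets lay below both medians, the brightest at 2.78 in AGS.W against 2.54 in AGS.veh. Of these, 3 were higher, 2 lower and 2 identical on the arrays.

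**Figure D2:**
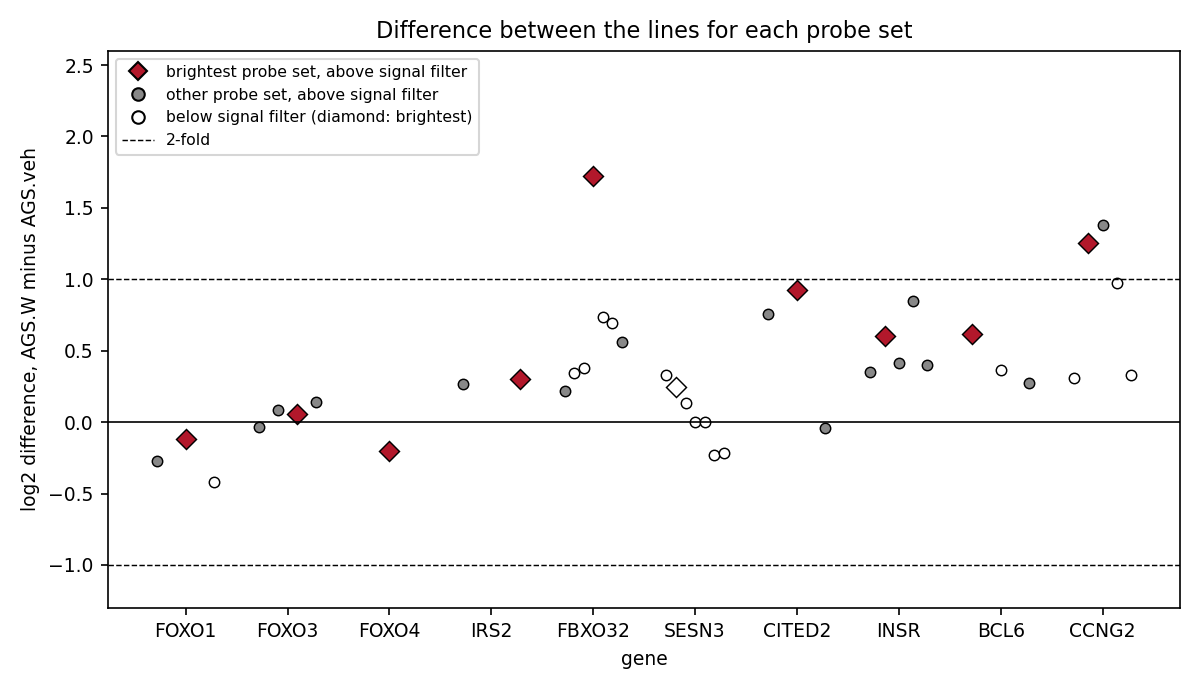
Log2 difference AGS.W minus AGS.veh (vertical axis) for every probe set, grouped by gene, with filled symbols for those above the signal filter, diamonds for the brightest of each gene and dashed lines at 2-fold. The FOXO genes lie between -0.42 and 0.14, and FBXO32 has 1 probe set at 1.73 with its others between 0.22 and 0.74.

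Counted together, 30 of the 40 probe sets were higher in AGS.W, 8 were lower and 2 were identical, where 44.5% of all 54613 probe sets were higher. Above the filter there were 24, of which 3 (12.5%) passed 2-fold on the higher side in AGS.W and 0 on the lower. Over all probe sets above the filter these shares were 1.9% and 1.89%. Of the 24, 21 reached the median on both arrays, while the other 3 passed only through their AGS.W reading, where they were higher. With each gene read by its brightest probe set, 2 of the 9 genes above the filter passed 2-fold on the higher side and 0 on the lower, against 1.83% and 1.94% of 12811 genes. At 1.5-fold, 5 were higher (FBXO32, CCNG2, CITED2, BCL6 and INSR) and 0 lower, against 6.64% and 7.37% of all genes. On their brightest probe sets, the 6 target genes above the filter ran from 0.30 to 1.73 and the 3 FOXO genes from -0.20 to 0.06. Over single probe sets the genes overlapped, since CITED2 had one at -0.04, FOXO3 one at 0.14, and of all 32 target probe sets, SESN3 included, 27 were higher, 3 lower and 2 identical. The median of the 9 genes was 0.61, and that of all genes above the filter was -0.01. Probe sets of a gene share its transcript and are not replicates of the line. The examined genes were chosen with earlier results of these data known, so their counts against all genes and probe sets are no independent support.

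A wider list of 48 other genes that FOXO factors are known to activate, in various tissues, gave a mixed picture. It was drawn up with earlier results of these data known, so its counts against all genes are no independent support. Of these, 46 were measured and 38 passed the filter. Of the 38, 24 were higher and 14 lower in AGS.W, where 45.7% of all genes above the filter were higher, and the median difference was 0.21. At least 2-fold higher were 9, or 8 where the median was reached on both arrays, since PCK1 passed only through its AGS.W reading, and 1 was at least 2-fold lower, against 1.83% and 1.94% of all genes above the filter. Among genes of growth factor feedback, ERBB3, a receptor of the EGF receptor family that signals to PI3K, read 7.87 in AGS.W against 5.99 in AGS.veh, or 3.68-fold. Its other 2 probe sets above the filter were also higher, by 0.38 and 1.49. TRIB3, a pseudokinase that binds AKT, read 8.98 in AGS.W against 7.97 in AGS.veh. The receptor gene IGF1R, of the same family as INSR, was not higher there, reading 7.53 in AGS.W against 8.34 in AGS.veh on its brightest probe set. Its other 3 probe sets above the filter ran from -0.30 to 0.24.

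Among genes of growth arrest, MXI1, a repressor that pairs with MAX, read 10.7 in AGS.W against 9.02 in AGS.veh, or 3.10-fold. CDKN1B, the CDK inhibitor p27 and a classic FOXO target, read 8.63 in AGS.W against 7.98 in AGS.veh. Other arrest genes did not share this direction, with differences of -0.75 for the CDK inhibitor CDKN2B, -0.71 for GADD45A and -0.08 for CDKN1A, the inhibitor p21. Over the 8 genes of the list, 5 were higher and 3 lower, where 45.7% of all genes above the filter were higher. CCND1, cyclin D1, which FOXO factors are known to lower, read 6.66 in AGS.W against 8.46 in AGS.veh. It was 1 of 3 listed genes that FOXO factors or BCL6 lower, and the others, CCND2 and FOXM1, had -0.42 and 0.03. Only CCND1 was at least 2-fold lower, as were 1.94% of all genes above the filter. Of the cell death genes only 2 passed the filter and neither was higher, BCL2L11, the BH3-only protein BIM, reading 6.32 in AGS.W against 6.85 in AGS.veh. Of its other 5 probe sets above the filter 1 shared that direction.

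Of the 8 genes of glucose and lipid metabolism, 5 passed the filter and G6PC1, APOC3 and MTTP did not. All 5 were higher, where 45.7% of all genes were. PCK1, PDK4 and IGFBP1 were at least 2-fold higher, against 1.83% of all genes. PCK1 passed only through its AGS.W reading, so the filter itself set its direction. The other 4 reached the median on both arrays. PDK4, the kinase that shuts off pyruvate dehydrogenase, read 9.43 in AGS.W against 7.31 in AGS.veh. IGFBP1, a secreted IGF-binding protein, read 9.56 in AGS.W against 8.48 in AGS.veh. PCK1, a gluconeogenic enzyme, read 8.20 in AGS.W against 3.60 in AGS.veh. The AGS.veh reading was below the median, so that the difference has no firm size. The redox regulator TXNIP read 9.45 in AGS.W against 6.38 in AGS.veh. By contrast SOD2, the mitochondrial superoxide dismutase, had a difference of 0.35. Of the 6 genes of oxidative stress defence, TXNIP and SOD2 included, 3 were higher and 3 lower, with a median of 0.08. That is near the 45.7% of all genes that were higher.

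Of 11 autophagy and protein breakdown genes above the filter, the mitophagy receptors BNIP3 and BNIP3L were higher by 1.53 and 1.02. Both are also induced by low oxygen. The hypoxia genes listed above were higher too, and the part of a hypoxia response was not tested. GABARAPL1, which joins lipids of the forming autophagosome, had -0.32. TRIM63, the partner ligase of FBXO32 in muscle, lay below both medians. IL7R, a FOXO1 target of T cells, was the gene of the list that was at least 2-fold lower, reading 4.39 in AGS.W against 6.29 in AGS.veh. As means over all probe sets, ERBB3, TRIB3 and IGFBP1 had 0.87, 0.72 and 0.54 and were no longer 2-fold apart.

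**Figure D3:**
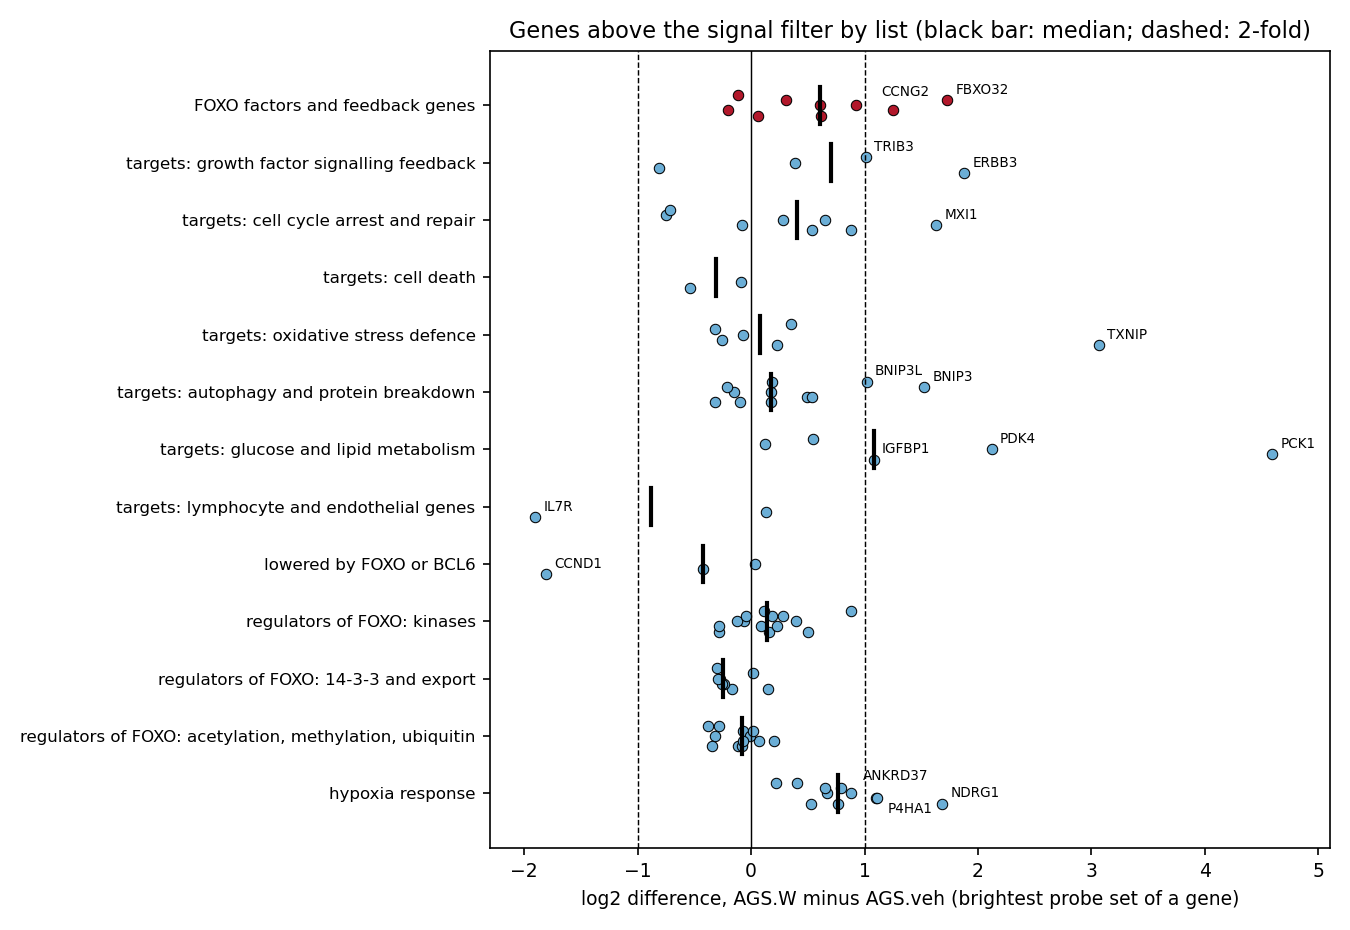
Log2 difference AGS.W minus AGS.veh (horizontal axis) of each gene above the signal filter, on its brightest probe set, in 13 lists (rows), with black bars at list medians, dashed lines at 2-fold and names for genes past it. The regulators of FOXO lie between -0.38 and 0.88, inside 2-fold, as most genes above the filter do. Target genes spread more widely, with IL7R at -1.90 and TXNIP at 3.06. PCK1 is drawn at its measured 4.59, which has no firm size, and stands at 4.17 with its AGS.veh reading set to the median.

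Genes for proteins that control FOXO factors were less than 2-fold apart where they passed the filter. Of all genes above the filter, only 1.83% were at least 2-fold higher and 1.94% lower, so this does not set the regulators apart. Of 39 listed, 37 were measured and 36 passed the filter. Of the 36, 15 were higher and 21 lower, where 45.7% of all genes were higher, and the median was -0.07. AKT1 and AKT2, the kinases that exclude FOXO proteins from the nucleus, had differences of 0.16 and 0.23, and other probe sets of AKT2 above the filter ran from -0.24 to 0.43. SGK1, a related kinase that phosphorylates FOXO3, read 10.46 in AGS.W against 9.96 in AGS.veh. The 14-3-3 and export genes had a median of -0.24, with 2 of 8 higher, against 45.7% of all genes. Of 10 relatives of the examined genes above the filter, none was 2-fold apart, which holds for most genes. The arrays measure RNA and hold no reading of phosphorylation, location or amount of the FOXO proteins.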

How the data were processed

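The authors deposited log2 signals per probe set for 2 arrays, 1 each of AGS.W and AGS.veh cells, already normalized between them. Per the labels, RMA and MAS5 were among the processing tools, while the sources used here give neither the role and version of each nor the definition of probe sets. Nothing was renormalized for the main values. After 62 control probe sets were left out, platform annotation of 2016 gave 41091 probe sets 1 gene, 1801 several and 11721 none, and current symbols were taken from RefSeq (GRCh38.p14) by gene identifier, with 54 older symbols kept. For gene counts, the probe set of highest mean signal stood for its gene. The fold threshold of 2 follows the methods of the study, whose FDR needs replicates. Named genes outside the 10 were those at least 2-fold apart in each list, at most 4 in each direction, with a few named for their role. CDKN1A, CDKN2B, GADD45A, CCND2, FOXM1, EGLN3, IGF1R, TRIM63, G6PC1, APOC3, MTTP and the marker genes named were added after their values were seen. The genes and lists were chosen with earlier results of these data known. Alternatives were 3 scalings (median centring, quantile, lowess with span 0.3), stricter and looser signal filters, folds of 1.5 and 3, and other ways to read a gene. The procedure was run on simulated data in which all probe sets of a changed gene had the same large difference. That checks the code, and not how well smaller differences or discordant probe sets are read here. Computation used Python 3.11.15 with pandas 2.3.3, numpy 2.4.6 and, for lowess, statsmodels 0.14.6; figures used matplotlib 3.10.9. The number of arrays limits the precision, and signals near or below the median may be background.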

Additional observations from a re-analysis of the deposited data

How the results depend on the processing

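No paired analysis was possible because there were no replicates to pair, and none to leave out. Under the 3 scalings, all 120 values of the 40 probe sets stayed within the spread of differences at their signal level, with 0 changes of sign and a largest move of 0.04. At 1.5-fold, 8 of the 24 probe sets and 5 of the 9 genes above the filter were higher in AGS.W. Of 38 wider FOXO target genes, 11 were higher and 4 lower, against 6.64% and 7.37% of all genes. Of all 28504 probe sets above the filter, 2005 were higher and 2050 lower. At 3-fold, 1 of the 24 probe sets and 1 of the 9 genes, FBXO32, were higher. Of the 38 wider target genes, 5 were higher and 1 lower. Of all 28504 probe sets above the filter, 111 were higher and 110 lower, and the share of all genes was not counted at this fold. As means over all probe sets of a gene, 0 of the 9 genes above the filter were at least 2-fold higher, and their median was 0.42. With no signal filter, which brings in SESN3, the median on the brightest probe sets was 0.46. The median of the wider target genes was 0.32 when _x_at and _s_at probe sets were dropped and 0.29 when each gene was read by its most different probe set. Signal limits SESN3 altogether, and FBXO32 and the dim INSR probe sets in AGS.veh, where their readings lie near or below the median.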
